A study of Arabidopsis thaliana with 6 samples.

Results

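The nuclear genes for the antenna, the photosystems and the electron carriers of the thylakoid membrane were followed in 6 single Arabidopsis thaliana plants, 3 msh1 memory plants and 3 wild-type plants. They were taken by locus identifier from a list of nuclear LHCB, LHCA, PSB, PSA, PETC, plastocyanin, ferredoxin and ferredoxin-NADP reductase genes. The list holds 50 of the 33602 loci in the deposited count tables, and all 50 passed the filter on low counts, which kept 16928 loci. They are 9 genes of the major light-harvesting complex II (LHCII), 6 of its minor antenna, 6 of light-harvesting complex I (LHCI), 11 of photosystem II (PSII), 12 of photosystem I (PSI) and 6 of electron transport. The msh1 memory plants carry the numbers 31, 32 and 33 in the labels and are described there as isogenic with the wild type. The wild-type plants are numbered 22, 23 and 24, and all 6 are of the Columbia-0 ecotype. As background, msh1 memory lines descend from plants in which MSH1, a MutS homologue sent to plastids and mitochondria, had been suppressed, and keep an altered growth form without the suppressing transgene. Seeds of both groups were stratified at 4 °C for 2 days. All plants were grown at 22 °C under 120 to 150 µmol of light per square metre per second, and each was frozen whole at early bolting. The labels give no plant age in days, and no separate leaf, stem or root tissue was sampled. The measure was the number of RNA-seq reads per gene, scaled here to CPM, the counts of a gene per 1000000 counts of its library after trimmed-mean normalisation (TMM).

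LHCII and LHCI proteins bind chlorophyll a and b and pass absorbed light energy to PSII and PSI. PSII takes electrons from water, plastocyanin carries them to PSI, and ferredoxin with its reductase passes them on to NADP. Antenna proteins are encoded in the nucleus, and LHCB1, LHCB2 and LHCB4 by small families of related copies. Most of their messengers are among the most abundant of a green leaf and follow light and the circadian clock. The reaction-centre cores are encoded in the plastid and are not analysed here.

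The 3 msh1 memory libraries held 4060216 to 5053439 counts and the 3 wild-type libraries 5459895 to 5806617. MSH1 itself had 59, 65 and 73 counts in memory plants 31, 32 and 33, against 97, 65 and 70 in the wild type, and its fitted log2 fold change was 0.01 (edgeR quasi-likelihood adjusted p = 0.991). Among the wild-type plants, number 23 was unlike the rest: the first principal component took 41.7% of the variance and placed it at 68.4, with the others between -25.0 and -4.46. The summed level of 5 dividing-cell markers was 46.5 to 53.4 CPM in memory plants and 55.4, 9.09 and 55.0 CPM in wild-type plants 22, 23 and 24. The 5 leaf mesophyll markers summed to 29348, 29161 and 26229 CPM in memory plants and 25361, 33546 and 22952 CPM in wild-type plants. The groups overlapped in this sum, and plant 23 was the highest. CA1 had 3020.2, 2988 and 2699.9 CPM in memory plants and 1861, 2622 and 1819 CPM in wild-type plants. GOX1 had 1289, 1290.4 and 1294 CPM in memory plants and 859, 1279 and 875 CPM in wild-type plants. Both were higher in every memory plant, whereas RBCS1A, RCA and GLDP1 overlapped. Over all genes tested, 19.7% did not overlap. Of the root markers, TIP2-3 and EXPA7 had no count in any plant and the list summed to 10.3 to 21.5 CPM in memory plants and 0.193 to 21.6 CPM in wild-type plants. Summed flower markers lay at 4.27 to 9.25 CPM in memory plants and 2.16 to 5.03 CPM in wild-type plants, and stem fibre and vessel markers at 26.9 to 29.1 CPM in memory plants and 20.9 to 35.6 CPM in wild-type plants. Guard-cell markers summed to 1645 to 1862 CPM in memory plants and 1631 to 2512 CPM in wild-type plants. Of the flower markers, AP3, a petal and stamen identity factor, had 4, 7 and 4 counts in memory plants and 0 in each wild-type plant, and SEP3, a floral organ factor, had 10, 8 and 20 counts in memory plants and 0, 0 and 10 counts in wild-type plants 22, 23 and 24. AP3 separated the groups and SEP3 did not, and both were too low to be tested. The test could be run for 1 of 6 root markers, 1 of 5 flower markers, 4 of 5 stem markers and all markers of the other 3 lists, and none of those tested passed. In whole plants, fewer cells of a type and less messenger per cell cannot be told apart, and the part of tissue make-up in the results that follow was not tested.

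None of the 50 genes differed between msh1 memory and wild-type plants at an adjusted p under 0.05 (edgeR quasi-likelihood test with Benjamini-Hochberg adjustment over all 16928 genes). Over all genes, 308 passed, which is 1.82%, with 0.449% higher and 1.37% lower in memory plants; the count was 34, 65 and 38 without memory plants 31, 32 and 33 in turn, and 1019 without wild-type plant 23. At an unadjusted p under 0.05, 2 of the 50 genes were found, LHCB1.4 and PSBS, or 4% of them, against 12.8% of all genes tested. DESeq2 called 1 of the 50, LHCB1.4, against 523 of the 22460 genes to which it gave a p-value. Limma voom called 0 of the 50, against 224 of 16928 genes. The smallest adjusted p in the edgeR fit was 0.137, for LHCB1.4.

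Counts of the 50 genes per library ran from 77 to 131468. The standard errors of their log2 fold changes ran from 0.13 to 0.22, against a median of 0.21 over all genes. Fitted log2 fold changes, memory minus wild type, ran from -0.63 to 0.39, and the 95% intervals from -1.04 to 0.81, so that 49 of the 50 intervals lay within a 2-fold change in either direction. The median was -0.12, against 0.01 over all genes. In 36 genes the fitted value was below 0 and in 14 above. This split turned to 23 below and 27 above, with a median of 0.02, when wild-type plant 23 was left out. It was 27 below and 23 above, with a median of -0.02, without memory plant 33. Without wild-type plant 22 it was 41 below and 9 above, with a median of -0.20. The split also turned, to 20 below and 30 above, when libraries were scaled to the summed counts of the 50 genes. That scaling sets their sum equal in every plant, so their values are drawn towards 0 by design. The median was then 0.04 over the 50 genes and 0.16 over all genes. The groups did not overlap in CPM for 6 of the 50 genes, or 12%, against 19.7% of all genes: LHCB1.2, LHCB1.4, LHCB4.1, PSBTN and LFNR2 were lower in every memory plant and PETE1 was higher.

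**Figure D1:**
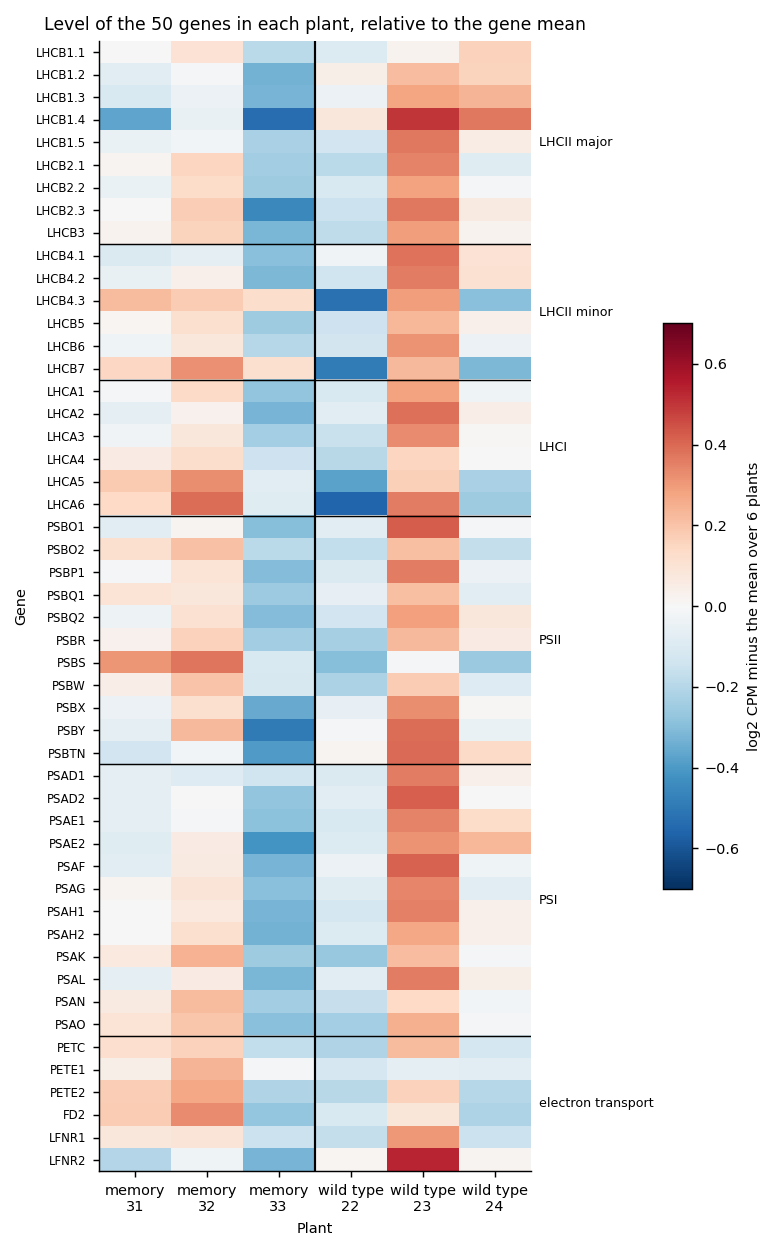
Heat map of the log2 CPM of each of the 50 genes (rows, by class) in each plant (columns, msh1 memory plants left of wild-type plants), with the gene's mean over the 6 plants subtracted. Plant 33 is the lowest memory plant for all 50 genes and plant 23 the highest wild-type plant for 49.

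Plants of a group differed from each other, and did so in the same direction over nearly all of these genes. Memory plant 33 had the lowest level of the 3 memory plants for 50 of 50 genes, against 36.9% of all genes tested. Wild-type plant 23 had the highest level of the wild-type plants for 49 of 50 genes, LHCB1.1 being the exception, against 39.3% of all genes, and the highest of all 6 plants for 39 of 50, against 23.7%. Summed over the 50 genes, the level was 159538, 170894 and 134470 CPM in memory plants 31, 32 and 33, against 150838, 199104 and 168802 CPM in wild-type plants 22, 23 and 24. The means were 154968 ± 18637 CPM in memory plants and 172915 ± 24394 CPM in wild-type plants (SD, n = 3 each), a log2 ratio of -0.16 that shrank to -0.04 without wild-type plant 23. As deposited, the 50 genes took 16.2, 16.8 and 14.3% of all counts in the memory libraries and 15.4, 18.3 and 16.7% in the wild-type libraries.

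**Figure D2:**
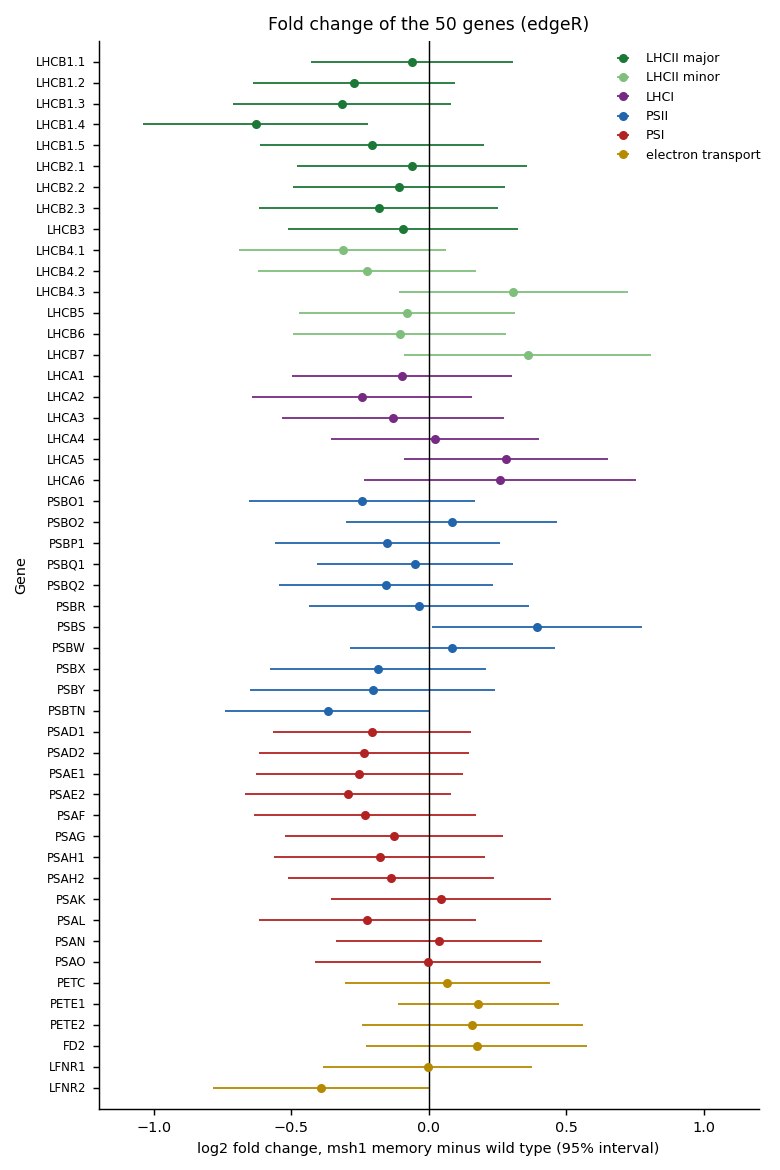
Fitted log2 fold change of each of the 50 genes, msh1 memory minus wild type, with its 95% interval from the edgeR quasi-likelihood fit; colours mark the gene classes. Only the intervals of LHCB1.4, below 0, and PSBS, above 0, leave out 0, and neither gene passed after adjustment.

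The 9 genes of the major LHCII antenna encode the subunits of the trimers, LHCB1, LHCB2 and LHCB3. LHCB1 has 5 copies: LHCB1.1, LHCB1.2 and LHCB1.3 lie close together on chromosome 1 (bases 10472280 to 10479114), and LHCB1.4 and LHCB1.5 lie head to head on chromosome 2 (bases 14522524 to 14525918; RefSeq TAIR10.1). Their coding sequences match at 86.8 to 96.4% of aligned positions, and no stretch of 150 bases, the read length, in the transcripts of LHCB1.1 to LHCB1.4 occurs in another annotated gene. All of the LHCB1.5 transcript is covered by AT2G08665, a gene on the other strand that the count tables do not list. Because the copies encode nearly the same protein and were read at different levels, the 250 bases before each annotated start are shown, 5′ to 3′ on the gene's own strand, with matches to the 5 motifs searched in capitals. The windows are chr1:10475970-10476219 (minus strand) for LHCB1.1, chr1:10473503-10473752 (minus) for LHCB1.2, chr1:10477635-10477884 (plus) for LHCB1.3, chr2:14524357-14524606 (plus) for LHCB1.4 and chr2:14523569-14523818 (minus) for LHCB1.5.
LHCB1.1: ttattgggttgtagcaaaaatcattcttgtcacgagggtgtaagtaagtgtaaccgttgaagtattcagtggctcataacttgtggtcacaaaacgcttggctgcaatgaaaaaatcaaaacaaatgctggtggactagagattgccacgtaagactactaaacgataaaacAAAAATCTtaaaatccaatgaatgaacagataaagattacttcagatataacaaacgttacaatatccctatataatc
LHCB1.2: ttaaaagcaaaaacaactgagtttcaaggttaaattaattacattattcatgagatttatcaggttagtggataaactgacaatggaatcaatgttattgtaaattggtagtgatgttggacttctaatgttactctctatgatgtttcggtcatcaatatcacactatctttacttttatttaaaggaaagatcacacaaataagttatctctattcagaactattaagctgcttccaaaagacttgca
LHCB1.3: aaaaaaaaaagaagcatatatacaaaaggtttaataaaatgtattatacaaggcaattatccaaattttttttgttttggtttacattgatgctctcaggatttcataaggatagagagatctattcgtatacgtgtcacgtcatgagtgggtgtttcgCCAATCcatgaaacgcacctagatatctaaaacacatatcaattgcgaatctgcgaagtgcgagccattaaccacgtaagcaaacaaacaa
LHCB1.4: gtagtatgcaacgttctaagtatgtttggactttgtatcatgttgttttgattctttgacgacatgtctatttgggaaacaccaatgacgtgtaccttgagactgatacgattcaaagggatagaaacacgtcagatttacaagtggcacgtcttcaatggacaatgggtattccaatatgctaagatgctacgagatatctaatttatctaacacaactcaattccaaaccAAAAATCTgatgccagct
LHCB1.5: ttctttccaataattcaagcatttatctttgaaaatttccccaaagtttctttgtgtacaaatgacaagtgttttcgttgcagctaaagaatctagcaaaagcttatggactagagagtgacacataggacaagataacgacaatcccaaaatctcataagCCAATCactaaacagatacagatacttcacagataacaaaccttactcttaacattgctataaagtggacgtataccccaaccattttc
The capitals mark AAAAATCT, a binding site of the clock factor CCA1, in LHCB1.1 at base -78 and in LHCB1.4 at base -18, and CCAATC in LHCB1.3 at base -91 and in LHCB1.5 at base -89, counted from the start to the first base of the match. None of the 5 motifs was found in the window of LHCB1.2.

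LHCB1.4 (AT2G34430) had the smallest p of the 50 genes. Its level was 2897, 3606 and 2582 CPM in memory plants 31, 32 and 33, against 3952, 5274 and 4826 CPM in wild-type plants 22, 23 and 24. Every memory plant was below every wild-type plant. The means were 3028 ± 524 CPM in memory plants and 4684 ± 672 CPM in wild-type plants (SD, n = 3 each), and the log2 fold change was -0.63 (SE 0.19, 95% interval -1.04 to -0.22, edgeR adjusted p = 0.137). DESeq2 gave an adjusted p of 0.00775, and edgeR without wild-type plant 23 gave -0.53 with an adjusted p of 0.0324.

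LHCB1.3 (AT1G29930), the most abundant of the 50 genes per kilobase of transcript, had 18036, 18819 and 15487 CPM in memory plants and 18809, 23458 and 22878 CPM in wild-type plants. Memory plant 32 overlapped with wild-type plant 22, and the log2 fold change was -0.32 (SE 0.18, edgeR adjusted p = 0.524). Per kilobase its mean was 14185 ± 1417 CPM in memory plants and 17655 ± 2060 CPM in wild-type plants (SD, n = 3 each). LHCB1.2 had 6530, 6798 and 5461 CPM in memory plants and 7060, 7966 and 7657 CPM in wild-type plants, groups that did not overlap, with a log2 fold change of -0.27 (edgeR adjusted p = 0.562). LHCB1.1 and LHCB1.5 had overlapping groups, with log2 fold changes of -0.06 and -0.21. Summed over the 5 copies, LHCB1 reached 45570 ± 4490 CPM in memory plants and 54979 ± 6376 CPM in wild-type plants (SD, n = 3 each). The groups overlapped in this sum, with memory plant 32 at 49296 CPM and wild-type plant 22 at 48012 CPM.

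LHCB2, whose protein carries the main phosphorylation site of state transitions, has 3 copies in the list and LHCB3 is a single gene. The summed LHCB2 level was 8766, 9747 and 7257 CPM in memory plants and 7929, 11070.0 and 8614 CPM in wild-type plants, so the groups overlapped. LHCB3 had 6249, 6850 and 4926 CPM in memory plants and 5432, 7532 and 6257 CPM in wild-type plants. The log2 fold changes of LHCB2.1, LHCB2.2, LHCB2.3 and LHCB3 lay between -0.18 and -0.06. Fitted values of all 9 major LHCII genes were below 0 with a median of -0.18. Of them, 2 turned above 0 when library totals were used as the scale. With libraries scaled to the 50 genes, which draws values towards 0 by design, 4 turned. With a plant left out, 3 turned without memory plant 33, 3 without wild-type plant 23 and 1 without wild-type plant 24. The median was -0.02 without memory plant 33, -0.05 without wild-type plant 23 and -0.30 without wild-type plant 22.

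The minor LHCII antenna links the trimers to the PSII core. LHCB5 (AT4G10340), the most abundant of its 6 genes per kilobase, had 7165, 7687 and 5985 CPM in memory plants and 6410, 8344 and 7263 CPM in wild-type plants, with a log2 fold change of -0.08 (SE 0.18, 95% interval -0.47 to 0.31, edgeR adjusted p = 0.904). LHCB4.1 (AT5G01530), which had the smallest p of this class, had 3938, 4026 and 3437 CPM in memory plants and 4147, 5486 and 4530 CPM in wild-type plants. Every memory plant was below every wild-type plant, and the log2 fold change was -0.31 (SE 0.17, edgeR adjusted p = 0.501). LHCB4.2 and LHCB6 were at -0.22 and -0.11, with overlapping groups.

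The 2 weakly expressed genes of the minor antenna had fitted values above 0. LHCB4.3 (AT2G40100), the least expressed copy of its family, had 90.0, 87.1 and 83.9 CPM in memory plants and 53.6, 94.5 and 62.8 CPM in wild-type plants. The memory plants lay close together, above wild-type plants 22 and 24 and below plant 23. Its log2 fold change was 0.31 (SE 0.19, edgeR adjusted p = 0.562), and 0.58 with an adjusted p of 0.00911 when plant 23 was left out. LHCB7, a rarely transcribed relative of the antenna genes, had 21.6, 24.3 and 21.0 CPM in memory plants and 13.9, 22.8 and 15.7 CPM in wild-type plants. Its log2 fold change was 0.36 (SE 0.21, edgeR adjusted p = 0.522) and 0.60 without plant 23 (adjusted p = 0.0739).

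LHCI forms a belt of 4 abundant proteins at PSI, LHCA1 to LHCA4, and 2 scarce ones, LHCA5 and LHCA6, that link PSI to the NADH dehydrogenase-like complex. LHCA4 (AT3G47470), the most abundant per kilobase, had 8124, 8511 and 7062 CPM in memory plants and 6827, 8673 and 7811 CPM in wild-type plants, a log2 fold change of 0.02 (SE 0.17, 95% interval -0.36 to 0.40, edgeR adjusted p = 0.974). LHCA1, LHCA2 and LHCA3 had log2 fold changes of -0.10, -0.24 and -0.13, with overlapping groups.

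LHCA5 (AT1G45474) had 147, 162 and 123 CPM in memory plants and 99.9, 145 and 111 CPM in wild-type plants, with a log2 fold change of 0.28 (SE 0.17, edgeR adjusted p = 0.552). LHCA6 (AT1G19150) had 116, 138 and 99.4 CPM in memory plants and 71.8, 135 and 88.9 CPM in wild-type plants, with a log2 fold change of 0.26 (SE 0.22, edgeR adjusted p = 0.692). In both genes wild-type plant 23 lay among the memory plants, and wild-type plants 22 and 24 lay below all of them. Without plant 23 the log2 fold changes were 0.46 for LHCA5 (edgeR adjusted p = 0.0460) and 0.56 for LHCA6 (adjusted p = 0.0256).

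The 11 PSII genes encode the oxygen-evolving proteins PSBO, PSBP and PSBQ, small membrane subunits, and PSBS, the sensor of lumen acidity that switches on heat dissipation of excess light energy. PSBS (AT1G44575; chromosome 1, bases 16870221 to 16873427) had the smallest p of the class. It had 1644, 1722 and 1236 CPM in memory plants and 1079, 1314 and 1109 CPM in wild-type plants. Memory plants 31 and 32 were above all wild-type plants, and plant 33 lay below wild-type plant 23. The means were 1534 ± 261 CPM in memory plants and 1168 ± 128 CPM in wild-type plants (SD, n = 3 each), and the log2 fold change was 0.39 (SE 0.17, 95% interval 0.01 to 0.78, edgeR adjusted p = 0.371). Without plant 23 it was 0.49 (adjusted p = 0.0406), and it stayed above 0 in all 14 other settings.

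PSBR (AT1G79040), a stabiliser of the oxygen-evolving complex and the most abundant PSII gene here per kilobase, had 4300.5, 4710.5 and 3555 CPM in memory plants and 3575, 4921 and 4378 CPM in wild-type plants, a log2 fold change of -0.04 (SE 0.18, 95% interval -0.44 to 0.37, edgeR adjusted p = 0.964). PSBTN (AT3G21055), a small extrinsic subunit, had 1366, 1479 and 1140 CPM in memory plants and 1519, 1971 and 1648 CPM in wild-type plants. Every memory plant was below every wild-type plant, and the log2 fold change was -0.37 (SE 0.17, edgeR adjusted p = 0.398). The other 8 PSII genes had log2 fold changes between -0.24, for PSBO1, and 0.09, for PSBW, with overlapping groups.

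The 12 PSI genes encode the stromal subunits PSAD and PSAE, where ferredoxin docks, the plastocyanin-docking subunits PSAF and PSAN, the peripheral PSAG and PSAK, and PSAH, PSAL and PSAO at the side where LHCII binds. None of them separated the groups. PSAE2 (AT2G20260), with the smallest p, had 400.04, 441 and 318 CPM in memory plants and 396, 526 and 497 CPM in wild-type plants, a log2 fold change of -0.29 (SE 0.17, edgeR adjusted p = 0.537). PSAL (AT4G12800), the most abundant per kilobase, had 3439, 3742 and 2888 CPM in memory plants and 3424, 4624 and 3703 CPM in wild-type plants, a log2 fold change of -0.22 (SE 0.18, 95% interval -0.62 to 0.17, edgeR adjusted p = 0.670). The 12 log2 fold changes ran from -0.29 to 0.04 with a median of -0.19, which was -0.04 without wild-type plant 23, -0.10 without memory plant 33 and -0.29 without wild-type plant 22. Of these, 10 were below 0, and 7 when libraries were scaled to the 50 genes, which draws values towards 0 by design.

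The 6 electron transport genes had a median of 0.11, with 4 fitted values above 0. A single plant moved this median: it was 0.07, 0.03 and 0.20 without memory plants 31, 32 and 33, and 0.04, 0.21 and 0.06 without wild-type plants 22, 23 and 24. Without plant 22, 3 of the 6 were above 0. Ferredoxin-NADP reductase has 2 leaf isoforms, LFNR1 and LFNR2, which act as partners at the thylakoid membrane. LFNR2 (AT1G20020; chromosome 1, bases 6942625 to 6945091) had 844, 955 and 777 CPM in memory plants and 984, 1408 and 986 CPM in wild-type plants. Every memory plant was below every wild-type plant, and the log2 fold change was -0.39 (SE 0.18, 95% interval -0.79 to 0.00, edgeR adjusted p = 0.394). LFNR1 had 1111, 1120.0 and 948 CPM in memory plants and 938, 1300.0 and 948 CPM in wild-type plants, a log2 fold change of 0.00 (95% interval -0.38 to 0.38, edgeR adjusted p = 0.998).

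Plastocyanin has a minor copy, PETE1, and a major copy, PETE2. PETE1 had 150.02, 172 and 144 CPM in memory plants and 134, 139 and 138 CPM in wild-type plants, groups that did not overlap, with a log2 fold change of 0.18 (SE 0.13, edgeR adjusted p = 0.635). PETE2 (AT1G20340) had 2787, 2976 and 2132 CPM in memory plants and 2161, 2763 and 2151 CPM in wild-type plants, a log2 fold change of 0.16 (SE 0.18, edgeR adjusted p = 0.792). FD2, the main leaf ferredoxin, was at 0.18 and PETC, the Rieske protein of the cytochrome b6f complex, at 0.07, with overlapping groups in both.

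Within a group, the 50 genes rose and fell together from plant to plant. Each class was therefore also set against the sum over the 50 genes in the same plant, which needs no scaling between libraries. Major LHCII genes made up 38.8, 38.6 and 39.2% of that sum in memory plants 31, 32 and 33 and 40.7, 39.7 and 42.2% in wild-type plants 22, 23 and 24. LHCI genes made up 15.4, 15.4 and 15.5% in memory plants and 14.7, 14.9 and 14.5% in wild-type plants. Electron transport genes made up 4.70, 4.71 and 4.45% in memory plants and 4.2, 4.11 and 3.72% in wild-type plants. In these 3 classes the groups did not overlap, with the major LHCII share lower and the other 2 higher in memory plants. The lower major LHCII share held for LHCB1 and not for LHCB2. LHCB1 genes made up 29.4, 28.8 and 30.2% in memory plants and 31.8, 30.4 and 33.4% in wild-type plants. The LHCB2 share overlapped between the groups, with a mean of 5.53% in memory plants and 5.31% in wild-type plants. Such shares were not computed for LHCB3 or for single genes of the other 2 classes. Of all single genes tested, 19.7% did not overlap in CPM, and no such share was computed for other gene classes. The shares are parts of one whole, so a lower one leaves room for the others, and they were not tested. Minor LHCII genes made up 11 to 11.3% in memory plants and 11 to 11.2% in wild-type plants, PSII genes 17.1 to 17.7% in memory plants and 16.3 to 17.2% in wild-type plants, and PSI genes 12.4 to 12.7% in memory plants and 12.2 to 12.8% in wild-type plants, each with overlapping groups.

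**Figure D3:**
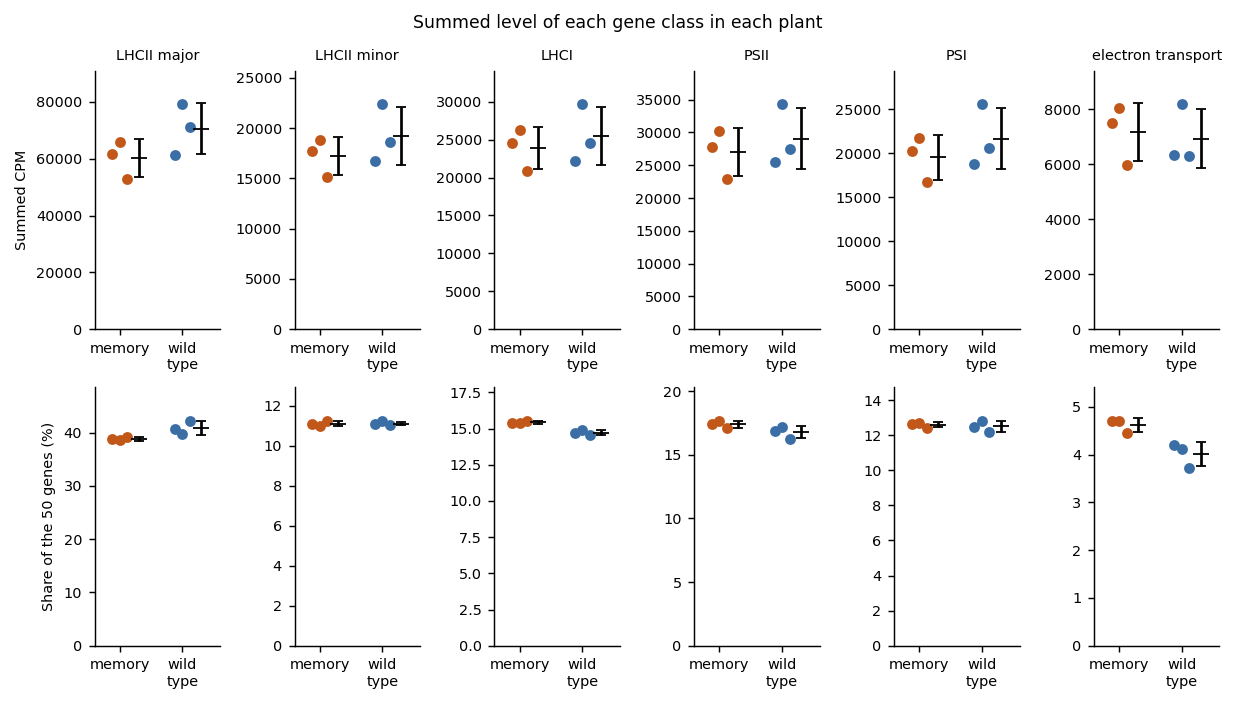
Upper row, summed TMM-scaled CPM of each gene class in each plant; lower row, the share of each class in the summed CPM of the 50 genes (percent); points are plants, msh1 memory left of wild type, and bars give the mean ± SD (n = 3). All 6 summed levels overlap between the groups, whereas the shares of major LHCII, LHCI and electron transport genes do not. The shares were not tested.

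Ratios between copies of one family within a plant were compared next, since depth and scaling drop out of them. The ratios are of counts and keep the difference in transcript length between the copies, which is the same in every plant, so they compare plants and not the levels of the copies. Of 15 ratios computed, 5 did not overlap between the groups. No ratios were computed for other genes, so this count has no background share of its own. Of all single genes tested, 19.7% did not overlap in CPM. An exact two-sided permutation test of 3 against 3 plants cannot go below p = 0.1, which each of the 5 reached, and the value adjusted over the 15 ratios was 0.3, so none passed.

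LFNR2 over LFNR1 was 0.760, 0.853 and 0.819 in memory plants, against 1.05, 1.08 and 1.04 in wild-type plants, a difference of -0.38 on the log2 scale. PSBO2 over PSBO1, the copies of the protein that stabilises the manganese cluster, was 0.313, 0.312 and 0.296 in memory plants, against 0.256, 0.237 and 0.246 in wild-type plants, a log2 difference of 0.32.

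LHCB4.3 over LHCB4.1 was 0.0228, 0.0216 and 0.0244 in memory plants, against 0.0129, 0.0172 and 0.0139 in wild-type plants, a log2 difference of 0.66. LHCB1.4 over LHCB1.3 was 0.161, 0.192 and 0.167 in memory plants, against 0.210, 0.225 and 0.211 in wild-type plants, a log2 difference of -0.32. LHCB1.1 over LHCB1.3 was 0.353, 0.363 and 0.361 in memory plants, against 0.317, 0.277 and 0.311 in wild-type plants, a log2 difference of 0.25. Within the LHCB1 family, LHCB1.4 thus took 6.19, 7.32 and 6.36% of the summed CPM in memory plants and 8.23, 8.71 and 8.56% in wild-type plants, while LHCB1.1 took 13.6, 13.9 and 13.8% in memory plants and 12.4, 10.7 and 12.6% in wild-type plants. The shares of LHCB1.2 and LHCB1.5 overlapped between the groups, and LHCB1.3 took 38.2 to 38.5% in memory plants and 38.8 to 40.6% in wild-type plants.

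The other 10 ratios, among the PSBQ, PSAD, PSAE, PSAH, PETE, LHCB2 and remaining LHCB1 and LHCB4 copies, overlapped between the groups, with log2 differences from -0.14 to 0.12. The sign of a ratio whose groups do not overlap cannot turn when a plant is left out, but its size can: the log2 difference lay between -0.42 and -0.34 for LFNR2 over LFNR1, 0.29 and 0.35 for PSBO2 over PSBO1, 0.57 and 0.78 for LHCB4.3 over LHCB4.1, -0.40 and -0.27 for LHCB1.4 over LHCB1.3, and 0.19 and 0.29 for LHCB1.1 over LHCB1.3. Of the genes in these 5 ratios only LFNR1 shares a 150-base stretch with another annotated gene, over 3.09% of its transcript.

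**Figure D4:**
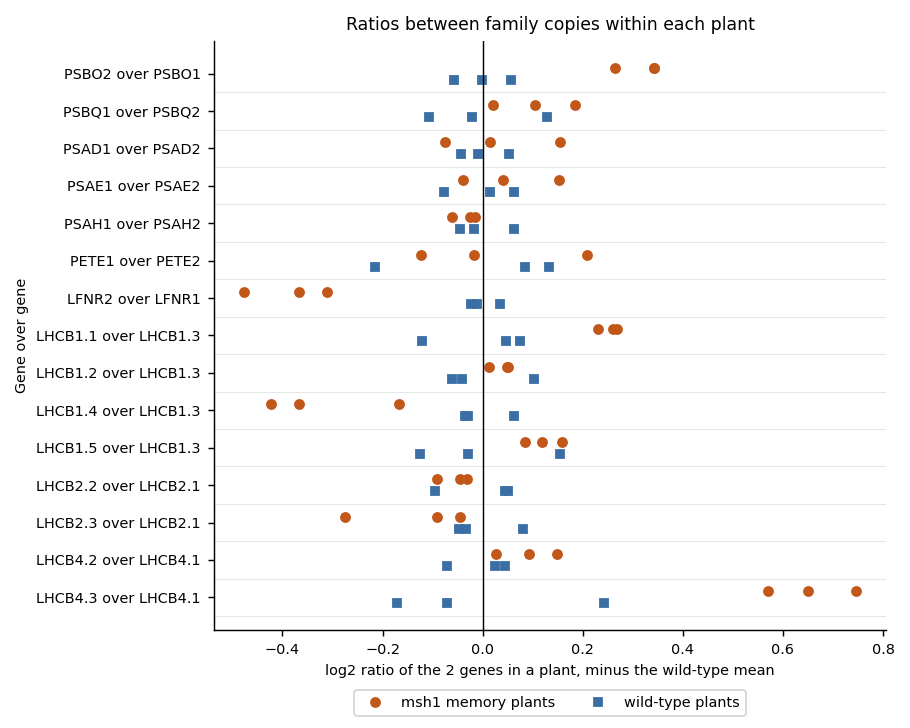
Log2 ratio of 2 family copies in each plant, minus the mean over the 3 wild-type plants, for 15 ratios; circles are msh1 memory plants and squares wild-type plants. Circles and squares separate for PSBO2 over PSBO1, LFNR2 over LFNR1, LHCB1.1 and LHCB1.4 over LHCB1.3, and LHCB4.3 over LHCB4.1, and overlap for the other 10.

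Leaving out wild-type plant 23 raised the number of genes past the threshold to 1019 of 17174, or 5.93%, and the number among the 50 to 5, or 10%. These were LHCB1.4, lower in memory plants, and LHCB4.3, LHCA5, LHCA6 and PSBS, higher in memory plants. Over all genes 2.66% were then called higher and 3.27% lower. This leaves 2 wild-type plants, and the plant left out is the one that differed most over all genes.

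Promoter windows of the 50 genes were searched on both strands for 5 letter motifs known from light and clock regulation. The G-box CACGTG was in 10 of 50 windows, or 20%, against 6.49% of the windows of 27443 protein-coding genes. CCAATC was in 13, or 26% against 10.2%, and the I-box GATAAG in 12, or 24% against 12.3%. The CCA1 site AAAAATCT was in 5, or 10% against 6.69%, and the evening element AAATATCT in 1, LHCA5, or 2% against 4.79%. A match describes the sequence and not a bound site. Of the 6 genes whose levels separated the groups, LHCB4.1 held a G-box at base -74 and CCAATC at bases -35 and -194, PSBTN a G-box at base -13, and LHCB1.4 the CCA1 site, while LHCB1.2, PETE1 and LFNR2 held none of the 5 motifs. PSBS held none either.

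Genes that work beside these proteins were read from 5 lists. For comparison with the calls in them, 1.82% of all genes passed with all 6 plants and 5.93% without wild-type plant 23. DESeq2 called 523 of 22460 genes with a p-value, and edgeR with library totals as the scale called 271 of 16928. Of 24 chlorophyll synthesis genes, 1 passed the test: PORB, a light-dependent protochlorophyllide oxidoreductase, was lower in memory plants. PORB (chromosome 4, bases 13725546 to 13727440, RefSeq TAIR10.1) had 729, 822 and 593 CPM in memory plants, against 1607, 1544 and 1659 CPM in wild-type plants, and no plant overlapped. Its means were 715 ± 115 CPM in memory plants and 1603 ± 57.7 CPM in wild-type plants (SD, n = 3 each), with a log2 fold change of -1.17 (SE 0.17, edgeR adjusted p = 0.00484). The adjusted p was 0.0661 without memory plant 31 and 0.0510 without memory plant 33. PORB overlaps AT4G27450 on the other strand, and reads from the stretch that both cover cannot be told apart without strand. Of the other oxidoreductases, PORC, which is active in green leaves, was at 0.16, and PORA had 5.13, 10.5 and 6.70 CPM in memory plants and 18.7, 6.38 and 49.1 CPM in wild-type plants. The 24 genes split into 12 above and 12 below 0, with a median of 0.01.

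The LHC-like proteins, relatives of the antenna that protect and assemble the photosystems, had 7 of 8 members tested, 0 past the threshold, and 3 at an unadjusted p under 0.05, against 12.8% of all genes. The median log2 fold change was 0.38, with 0.24 without wild-type plant 24 and 0.55 without plant 23. OHP1, which helps build the PSII reaction centre, had 110, 129 and 94.1 CPM in memory plants and 70.2, 83.1 and 67.3 CPM in wild-type plants. Every memory plant was above every wild-type plant, with a log2 fold change of 0.60 (SE 0.16, edgeR adjusted p = 0.0849). It passed with DESeq2 (adjusted p = 0.0395), with library totals as the scale (0.0390) and without wild-type plant 23 (0.00346), where OHP2 and SEP2 passed as well.

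Of 16 Calvin cycle genes tested, out of 17, 0 passed, 15 fitted values were above 0, against 51.2% of all genes, and the median was 0.15. GAPA1, a subunit of plastid glyceraldehyde-3-phosphate dehydrogenase, had the smallest p of them, with 2182, 2328 and 1909 CPM in memory plants and 1571, 1833 and 1627 CPM in wild-type plants and a log2 fold change of 0.35 (edgeR adjusted p = 0.382). Without wild-type plant 22, 10 of the 16 were above 0 with a median of 0.08, and without plant 24, 10 with a median of 0.07. The median was 0.29 without plant 23, 0.23 without memory plant 33 and 0.09 without memory plant 32. Without plant 23, FBA1, a plastid aldolase, passed (log2 fold change 0.58, edgeR adjusted p = 0.00686). Among 18 genes of antenna insertion, phosphorylation and energy dissipation, 0 passed, 2 had an unadjusted p under 0.05, and the median was 0.04, which turned to -0.04 without memory plant 32 and -0.01 without wild-type plant 24 and was 0.23 without plant 23. PBCP, the phosphatase of PSII core proteins, had 33.8, 32.6 and 34.7 CPM in memory plants and 21.4, 25.5 and 25.4 CPM in wild-type plants (log2 fold change 0.48, edgeR adjusted p = 0.155).

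VDE, the violaxanthin de-epoxidase of the xanthophyll cycle, had 82.5, 87.1 and 82.3 CPM in memory plants and 98.2, 155 and 102 CPM in wild-type plants (log2 fold change -0.49, edgeR adjusted p = 0.246). ZEP, the epoxidase that runs the cycle in the other direction, had 574, 555 and 554 CPM in memory plants and 388, 635 and 351 CPM in wild-type plants (log2 fold change 0.29, edgeR adjusted p = 0.620). Without wild-type plant 23, ZEP passed (0.61, adjusted p = 0.00294), as did PGR5 and PGRL1A of cyclic electron flow (0.42 and 0.52, adjusted p = 0.0391 and 0.0103). Of the 12 other subunits of the photosynthetic complexes, 0 passed and 1 had an unadjusted p under 0.05, with a median of 0.15 that was 0.08 without memory plant 31 or 32, 0.09 without wild-type plant 22 and 0.27 without memory plant 33. FD1, the minor leaf ferredoxin, had 204.5, 229.9 and 174.1 CPM in memory plants and 138, 170 and 139 CPM in wild-type plants, groups that did not overlap (log2 fold change 0.44, edgeR adjusted p = 0.225; 0.56 and 0.0117 without wild-type plant 23).

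**Figure D5:**
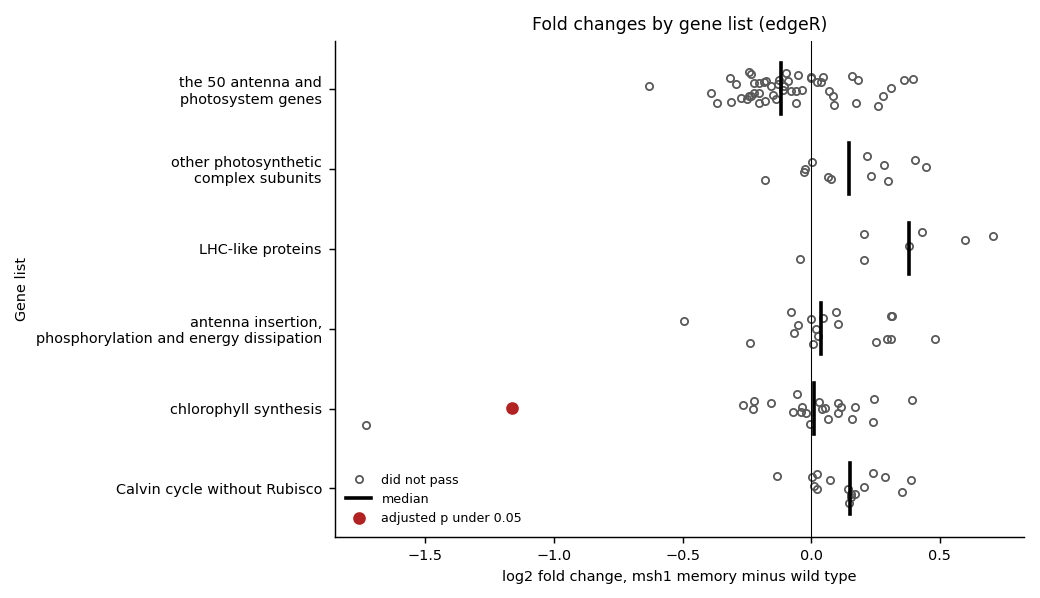
Log2 fold changes, msh1 memory minus wild type, of the 50 genes and of the tested genes of 5 related lists, 1 point per gene, with the median of each list as a bar. The filled point is PORB, the 1 gene with an adjusted p under 0.05 (edgeR); the medians are -0.12 for the 50 genes and 0.38 for the LHC-like proteins.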

How the data were processed

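RNA from 6 whole plants was sequenced as 150-bp reads from TruSeq RNA v2 libraries, per the labels' protocols; that kit does not mark strand. The authors deposited 1 table of raw read counts per plant. TAIR10 and DESeq2 are the build and tool named in the submitters' processing notes; for the aligner, the counting program and multiply mapped reads, nothing is given in the sources used here.

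Genes were kept by filterByExpr (count minimum 10, total 15), scaled by TMM and fitted with edgeR 4.0.16 (R 4.3.3) by robust quasi-likelihood, without a block, since the plant numbers are not shared. p-values are two-sided and adjusted over all genes tested by the Benjamini-Hochberg method, with a threshold of 0.05. Standard errors and 95% intervals come from the F statistic and its degrees of freedom. Copy ratios used an exact permutation test (scipy 1.17.1). Alternatives used DESeq2 1.42.0, limma 3.58.1, other scalings and filters, and each plant left out. The code was tested on simulated data.

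Replicate plants differed by more than sampling noise (chi-square per degree of freedom of at least 3.23). The labels call the plants individual, and the p-values measure the spread between them.

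The 50 genes, the lists and the motifs were chosen with earlier results of these data known. Named with full statistics were, per class, the gene with the smallest p and the most abundant per kilobase; per list, the gene with the smallest p or past the threshold; others are named for family comparisons. Positions and promoter windows, 250 bases before each annotated gene start, come from the RefSeq annotation of TAIR10.1, in place of a ready-made promoter table. Of the 50 transcripts, 18 overlap another annotated gene and 10 share 150-base stretches with another gene: PSAG over 52.3%, PSAH1 over 44.7%, LHCB2.3 over 33.9% and PSAE1 over 18.2% of the transcript, all with a gene on the other strand, and LHCB2.1 with LHCB2.2 over 0.239%. LHCB1.5 is shared over 100% with AT2G08665. The partners of LHCB1.5, PSAG and PSAE1 were not among the counted loci. The partner of PSAH1 had at most 0 counts in a plant and that of LHCB2.3 at most 227. How reads in the shared stretches were assigned is not known, so these levels are uncertain to an extent that was not measured.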

Additional observations from a re-analysis of the deposited data

How the results depend on the processing

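The 50 genes had 0 past the threshold in the edgeR fit, 1 with DESeq2 and 5 without wild-type plant 23 (0 to 5 over all plants left out in turn). Over all genes the 308 calls became 523 with DESeq2, 172 when libraries were scaled to the summed counts of the 50 genes, and 34 to 1019 with a plant left out: 34 without memory plant 31, 65 without 32, 38 without 33 and 1019 without wild-type plant 23. That scaling, and the plants left out of the copy ratios, were chosen after seeing the data; the scaling moved the median of all genes to 0.16. The LHC-like list had 1 call with DESeq2 or library totals and 0 to 3 with a plant left out. Over all genes, DESeq2 called 523 of 22460 with a p-value and library totals 271 of 16928. With a plant left out, the other subunits and the Calvin cycle each had 0 to 1, antenna insertion 0 to 3 and chlorophyll synthesis 0 to 1. Signs turned for LHCB5 (0.0767 with the 50-gene scaling; -0.1691 to 0.0264 with a plant left out, above 0 without memory plant 33 or wild-type plant 23), for LHCA4 (-0.0623 to 0.1138 with a plant left out, below 0 without memory plant 32 or wild-type plant 22) and for PSBR (0.0345 with library totals, 0.1227 with the 50-gene scaling, -0.1517 to 0.0783 with a plant left out, above 0 without memory plant 33 or wild-type plant 23). In 100-base windows, the evening element was in 0% of the 50 genes, against 1.91% of all protein-coding genes. The CCA1 site was in 8% against 2.45%, and the G-box in 18% against 3.61%. The I-box was in 16% against 5.17%, and CCAATC in 22% against 4.32%. In all, 29 of the 50 genes kept their sign in the 14 other settings and 21 did not; the median over the 50 ran from -0.20 to 0.04. The cause was not tested for any of these. No paired analysis was possible because the groups share no plant numbers.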
